A study of Mus musculus with 6 samples.

Results

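The 9 genes described here, Gsg1l, Ncam2, Ncald, Slc15a2, Fgf1, Col27a1, Arhgef3, Gprin3 and Cdh13, were chosen from 32285 measured genes because their levels in granule neurons had differed between mice kept in chronic intermittent hypoxia (CIH) and mice kept in room air (normoxia). Their difference in granule neurons is therefore given as a description with no test, and tests were run only in the other classes of nuclei. Nuclei came from the pons and medulla of wild-type C57BL6/J male mice, which were weaned at postnatal day 21 and held in either condition from postnatal day 22 to 43. In CIH, nitrogen flowed for 60 seconds until oxygen fell to between 4.5 and 5%, and air then brought it back to 21% within at most 5 minutes. The cycle ran 80 times in 8 hours on each of 21 days. There were 3 libraries of single-nucleus RNA sequencing per group, and the tests below measure only the spread between them, because the number of mice behind each library is not labelled. The labels name no cerebellar tissue.

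Granule neurons are small excitatory neurons that fill the inner layer of the cerebellar cortex and also lie in the cochlear nuclei. They receive mossy fibres, many of which come from the pons and medulla, and send parallel fibres to Purkinje cells. Mature granule neurons are known by the GABA-A receptor subunit gene Gabra6 and the atypical cadherin gene Fat2. The 9 genes have different roles at the cell surface and inside the cell: Gsg1l encodes an auxiliary subunit that dampens AMPA-type glutamate receptors, and Ncam2 and Cdh13 encode adhesion molecules, the latter held to the membrane by a lipid anchor. Ncald encodes a calcium sensor of the hippocalcin family, Arhgef3 a guanine nucleotide exchange factor for small GTPases, and Gprin3 a protein that binds activated Gi/o alpha subunits. Slc15a2 encodes a proton-coupled transporter of small peptides, Fgf1 a fibroblast growth factor without a classical signal peptide, and Col27a1 a fibrillar collagen.

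RefSeq promoters (GRCm38.p6, 250 bases before and 50 from each start) were matched for 5 of the 9 genes, Ncam2, Slc15a2, Col27a1, Arhgef3 and Gprin3, as 8 promoters. The core of the hypoxia response element, ACGTG on either strand (CACGT when read on the other), occurred in 2 of these 8 and in 19.6% of all 32851 promoters. The 2 with a match are shown because one belongs to a gene with more RNA and the other to a gene with less RNA in CIH. Each run reads 5′ to 3′ along the gene's strand and ends at the base before the start, with the matched letters in capitals: chr16:36784963-36785212 on the minus strand for Slc15a2, with 1 match that begins at base 209, and chr6:59426307-59426556 on the minus strand for Gprin3, with 2 overlapping matches that begin at bases 152 and 153.
Slc15a2: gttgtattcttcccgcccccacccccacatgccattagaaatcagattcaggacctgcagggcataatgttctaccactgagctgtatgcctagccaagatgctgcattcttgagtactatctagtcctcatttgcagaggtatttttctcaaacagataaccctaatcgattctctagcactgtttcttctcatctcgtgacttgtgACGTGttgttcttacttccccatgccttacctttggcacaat
Gprin3: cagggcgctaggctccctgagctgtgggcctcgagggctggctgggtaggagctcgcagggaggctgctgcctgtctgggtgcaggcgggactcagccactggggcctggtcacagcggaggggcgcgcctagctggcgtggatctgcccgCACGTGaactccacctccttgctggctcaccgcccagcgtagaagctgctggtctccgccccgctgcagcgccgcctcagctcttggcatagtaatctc
The short form of the cyclic AMP response element, TGACG or CGTCA, was present in 3 of the 8 promoters and in 20.8% of all of them, and the full form TGACGTCA in 0 of 8 and 1.79%. The matches describe the letters of these windows only.

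All 9 are protein-coding genes in GENCODE release M21 on mm10. Gsg1l lies at chr7:125878420-126082411 on the minus strand, Ncam2 at chr16:81200697-81626828 on the plus strand and Cdh13 at chr8:118283733-119324921 on the plus strand. Ncald spans chr15:37366175-37792570 on the minus strand, Arhgef3 chr14:27114899-27403911 on the plus strand and Gprin3 chr6:59347226-59426294 on the minus strand. Slc15a2 occupies chr16:36750177-36784962 on the minus strand, Fgf1 chr18:38838673-38929472 on the minus strand and Col27a1 chr4:63214004-63334991 on the plus strand. Fgf1 shares sequence with the protein-coding gene Arhgap26 on the opposite strand, and Ncald with 4930447A16Rik. Whether the counting used strand is not given in the sources used here, so reads of such pairs may not be fully told apart.

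Nuclei were kept when they held at least 500 genes and at most 5% mitochondrial counts, which left 40139 of 43836 barcodes. The libraries held 26733243, 28534969 and 40750363 unique molecular identifiers (UMIs, counts of captured RNA molecules) in CIH and 30260893, 37399822 and 46754345 in normoxia. A nucleus was gated as a granule neuron when it had at least 1 UMI of Gabra6 and of Fat2. This gave 683, 815 and 302 nuclei in CIH libraries 1, 2 and 3, and 310, 411 and 271 in normoxia libraries 1, 2 and 3, 2792 in all; values are given below in this order. The share of kept nuclei was 15.7, 18.3 and 2.84% in CIH and 6.60, 6.21 and 2.89% in normoxia, so the third CIH library stood below normoxia libraries 1 and 2. The third CIH library also had the highest median mitochondrial share, 0.366% against 0.062 to 0.095% in the others.

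The libraries were not fully separate. CIH library 1 and normoxia library 2 had 1563 barcodes in common, 33.9% and 21.1% of their barcodes, while each of the other 14 pairs of libraries had between 3 and 38. In 1558 of the 1563 the CIH copy was the deeper, with a median of 7872 UMIs against 984 and a median ratio of 7.92 (5th to 95th percentile 7.18 to 8.74). The profiles of the same barcode in the 2 libraries had a median correlation across genes of 0.531, against 0.269 for barcodes paired with the next one in the list. Among gated granule nuclei these barcodes carried 90.3% of the UMIs of CIH library 1 and 5.89% of those of normoxia library 2. The members' values are therefore also given without these barcodes.

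The gate did not isolate granule neurons, and the values below are given for 2 definitions. Of the gated nuclei 35.1, 27.1 and 23.2% in CIH and 41.9, 38.7 and 39.9% in normoxia also passed the gate of another class. The nuclei were clustered without the 9 genes, after removal of likely doublets, and cluster 1 held the largest share of the gated nuclei (63.4, 72.9 and 67.2% in CIH; 52.4, 54.1 and 46.1% in normoxia). That cluster, called granule-like because Gabra6 and Fat2 were among its 10 leading genes, held only 13.8, 25.3 and 50.4% of the gated UMIs in CIH and 10.8, 12.3 and 9.30% in normoxia. Most gated UMIs in 5 of the 6 libraries came instead from cluster 7, whose nuclei had a median of 15527 UMIs and whose 10 leading genes included no granule neuron marker. Cluster 7 held 74.4, 64.3 and 8.82% of gated UMIs in CIH and 76.3, 72.2 and 74.9% in normoxia, and the third CIH library thus differed from the rest in which nuclei made up its sum. Cluster 20, with 333 nuclei of which 135 passed the gate, also had Gabra6 and Fat2 among its 10 leading genes, together with the oligodendrocyte genes Mag at 592 and Mog at 675 CPM, and its nuclei are not in the values of the granule-like cluster.

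**Figure D1:**
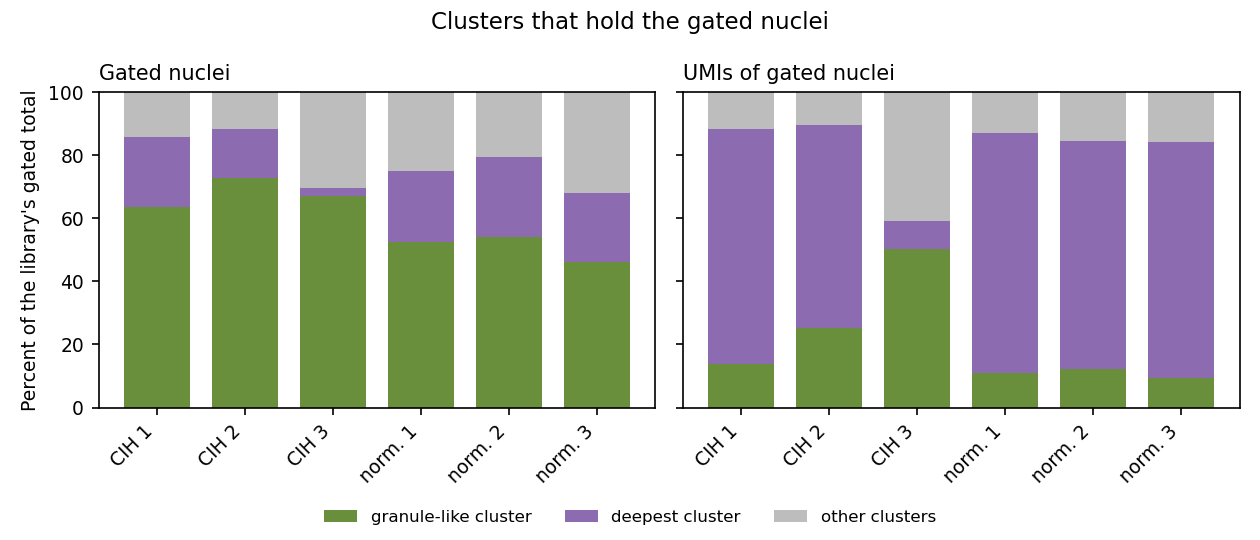
Share of the nuclei passing the Gabra6 and Fat2 gate (left) and of their UMIs (right) that lay in the granule-like cluster, the deepest cluster and all other clusters, in percent per library (norm., normoxia). The deepest cluster takes 64.3 to 76.3% of the UMIs in 5 libraries and 8.82% in CIH library 3.

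The granule-like cluster held 4247 nuclei, 1038, 1172 and 645 in CIH and 386, 499 and 507 in normoxia, with 835089 to 3273952 UMIs per library. Levels are given in CPM, UMIs scaled to the effective total of all genes in a library's sum. The summed level of the 10 granule neuron markers overlapped between groups, at 5404 to 5859 CPM in CIH and 5318 to 5936 in normoxia. In the gate the same sum was higher in every CIH library, 2200 to 3561 against 1555 to 1810. Excitatory neuron markers (3315 to 4690 against 2687 to 3086) and Purkinje cell markers (28.6 to 145 against 20.5 to 25.3) were also higher in the gated CIH nuclei, and microglia markers (135 to 191 against 230 to 248) and cerebellar interneuron markers (337 to 510 against 527 to 568) were lower. Oligodendrocyte markers (6 of 6 detected) overlapped in the cluster, at 1172 to 2131 in CIH and 1370 to 1618 in normoxia, and microglia markers (6 of 6) were lower in CIH, at 63.8 to 68.4 against 81.2 to 127. Endothelial markers (6 of 6) were higher in CIH, 16.3 to 58.3 against 11.1 to 16.1, and Purkinje cell markers (3 of 3) overlapped but reached 303 in CIH library 3. No marker of these lists was at 0, and their part in the members' values was not tested.

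In the gated nuclei, 4 of the 9 genes were higher in every CIH library than in any normoxia library and 2 were lower, which compares with 9.51% and 8.97% of the 14578 genes measured there. In the granule-like cluster 7 were higher and 2 lower without overlap, with 5.88% and 5.32% of 9704 genes in the same position. These counts follow from how the genes were chosen. Across all genes 0.00686% were called in the gate at an adjusted p under 0.05 (edgeR quasi-likelihood test with Benjamini-Hochberg adjustment), which is 1 gene, and 0.0% in the cluster, where 383 genes had an unadjusted p under 0.05 and DESeq2 called 4. The called gene was Aspa, which encodes the enzyme that cleaves N-acetylaspartate and is expressed in oligodendrocytes. It fell in the gate by 0.92 on the log2 scale (SE 0.10, adjusted p = 0.0437 in edgeR), and was at 789 to 1038 CPM in the oligodendrocytes of these libraries.

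**Figure D2:**
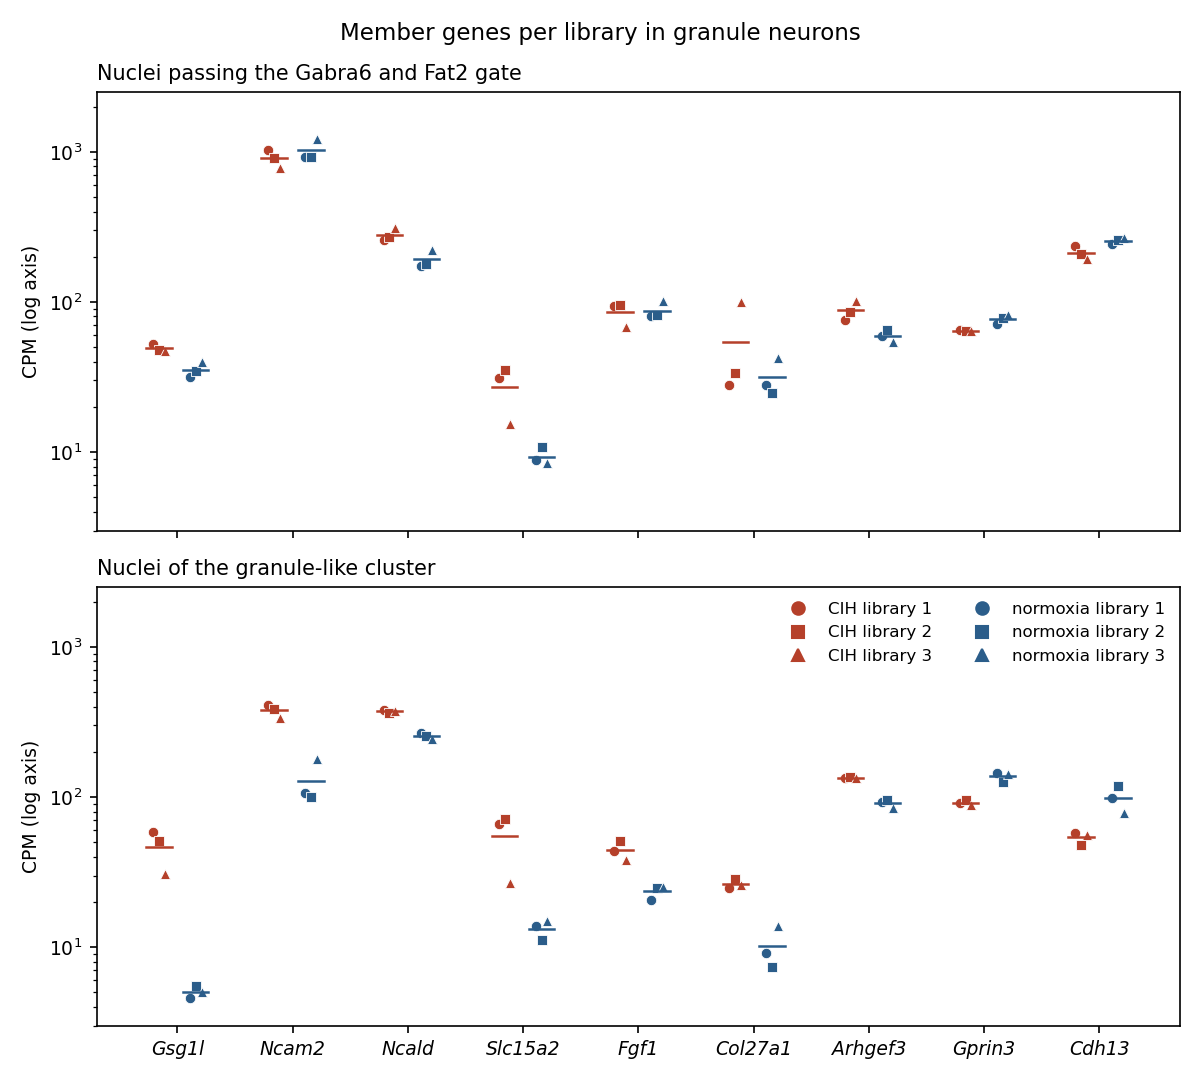
CPM (log axis) of the 9 genes in each library, for nuclei passing the gate (top) and nuclei of the granule-like cluster (bottom); red points are CIH libraries, blue points normoxia libraries and lines the group means. In the lower panel no gene's groups overlap, and Gsg1l, Ncam2 and Slc15a2 show the widest gaps between group means.

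Gsg1l had the largest log2 fold change of the 9 in the granule-like cluster. There it was read at 58.5, 50.8 and 30.7 CPM in CIH, from 137, 165 and 39 UMIs, and at 4.60, 5.54 and 5.00 in normoxia, from 4, 6 and 4 UMIs. The normoxia libraries lay close together at the level of a few UMIs, and CIH library 3 was the lowest of its group. The means were 46.7 ± 14.4 (SD, n = 3) and 5.05 ± 0.470 (SD, n = 3), a log2 fold change of 3.21 (SE 0.35), with 3.02 to 3.40 when any 1 library was left out. In the gate the levels were 52.8, 47.9 and 47.4 in CIH and 31.6, 34.8 and 39.9 in normoxia, a log2 fold change of 0.50 that came without overlap but was far smaller. After each nucleus of the cluster had been thinned to 1000 UMIs, 4.82, 4.61 and 1.91% of nuclei held a Gsg1l UMI in CIH and 0.292, 0.236 and 0.693% in normoxia. Oligodendrocytes thinned in the same way, which express little Gsg1l, gave 0.0977 to 0.509% (median 2281 to 3441 UMIs per nucleus before thinning, against 1498 to 2334 in the cluster). The normoxia shares of the cluster, from 1, 1 and 3 nuclei, were near that range and are read as background.

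Ncam2 depended on the definition of the granule nuclei. In the cluster it was at 411, 388 and 337 CPM in CIH and 106, 100.6 and 179 in normoxia. Every CIH library exceeded every normoxia library, with means of 379 ± 37.8 and 128 ± 43.6 (SD, n = 3 each) and a log2 fold change of 1.58 (SE 0.20). In the gate it was at 1034, 905 and 777 in CIH and 926, 928 and 1209 in normoxia, where the groups overlapped and the log2 fold change was -0.17. Its sign differed from that of the gate in 17 of 32 alternative settings, which include those that used the cluster. Ncam2 was abundant outside granule neurons, at a mean over the 6 libraries of 2340 in oligodendrocyte precursors and 1577 in oligodendrocytes, and the cluster had the lowest mean of the 8 sets of nuclei compared, 253. In thinned nuclei of the cluster 24.0, 23.2 and 18.8% held an Ncam2 UMI in CIH and 7.87, 7.09 and 12.2% in normoxia, against 65.6 to 77.5% of oligodendrocytes.

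Cdh13, the other adhesion gene, went the opposite way. Its level in the cluster was 57.7, 48.1 and 55.9 in CIH and 98.9, 119 and 78.7 in normoxia. All CIH libraries lay below all normoxia libraries, and the means of 53.9 ± 5.12 and 98.9 ± 20.2 (SD, n = 3 each) gave a log2 fold change of -0.89 (SE 0.17). In the gate the levels were 236, 209 and 194 against 242, 258 and 266, with a log2 fold change of -0.25 and a narrow gap between CIH library 1 and normoxia library 1. Cdh13 was thus lower in CIH in both definitions, and its sign was kept in all 32 alternative settings. These settings re-use the libraries on which the gene was chosen, so the kept sign is a description only.

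The 3 genes of intracellular signalling did not overlap between groups in either definition. Ncald was at 382, 363 and 372 CPM in the cluster in CIH and 268, 254 and 242 in normoxia. Its log2 fold change was 0.55 (SE 0.08) in the cluster and 0.54 in the gate, where it was at 258, 272 and 311 against 173, 180 and 222. The 2 definitions thus gave nearly the same difference for this calcium sensor gene. Arhgef3 was at 133, 136 and 133 in the cluster in CIH and 92.0, 95.1 and 85.0 in normoxia, with a log2 fold change of 0.56 (SE 0.11). In the gate Arhgef3 read 76.2, 85.7 and 101.5 against 59.2, 64.8 and 53.9, a log2 fold change of 0.53. Both genes were higher in every CIH library in both definitions. Gprin3 was lower in CIH, at 91.0, 95.5 and 88.2 in the cluster against 144, 126 and 142, a log2 fold change of -0.58 (SE 0.11). Its levels in the gate were 64.6, 64.0 and 64.1 in CIH and 71.6, 78.6 and 81.7 in normoxia, a log2 fold change of -0.26. Of the 8 sets of nuclei the cluster had the highest mean of Gprin3, 114, although its range overlapped that of inhibitory neurons.

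Slc15a2, Fgf1 and Col27a1, the genes of peptide transport, growth factor and matrix, were higher in CIH in the cluster. Slc15a2 was at 66.2, 71.5 and 26.8 CPM in CIH, from 155, 232 and 34 UMIs, and at 13.8, 11.1 and 14.99 in normoxia, from 12 UMIs in each library. CIH library 3 was again the lowest of its group, and the log2 fold change was 2.09 (SE 0.39) and stayed between 1.86 and 2.39 without any 1 library. In the gate the levels were 31.3, 35.0 and 15.4 against 8.84, 10.7 and 8.43, a log2 fold change of 1.64, the largest of the 9 there. In thinned nuclei of the cluster 6.64, 6.92 and 2.61% held a Slc15a2 UMI in CIH and 0.583, 0.473 and 1.85% in normoxia, with 0.646 to 2.05% in oligodendrocytes. By library, the oligodendrocyte shares were 1.76, 2.05 and 1.28% in CIH and 0.945, 0.646 and 1.09% in normoxia. The cluster lay below the oligodendrocytes of the same library in normoxia libraries 1 and 2. It lay above them in normoxia library 3 and in every CIH library. The normoxia shares of the cluster rested on 2, 2 and 8 nuclei.

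Fgf1 was at 44.0, 50.8 and 37.8 in the cluster in CIH and 20.7, 24.9 and 25.0 in normoxia, a log2 fold change of 0.92 (SE 0.20). In the gate it was at 93.2, 94.9 and 68.1 against 80.0, 81.3 and 100.7, where the groups overlapped and the log2 fold change was 0.01. Of these 2 definitions, the Fgf1 groups separated only in the cluster. Col27a1 was at 24.8, 28.7 and 26.0 in the cluster in CIH, from 58, 93 and 33 UMIs, and 9.20, 7.39 and 13.7 in normoxia, from 8, 8 and 11 UMIs, a log2 fold change of 1.42 (SE 0.27). In the gate it was at 28.0, 33.6 and 100.2 against 27.8, 24.7 and 42.1, with overlapping groups. Its log2 fold change in the gate was 0.60 and became 0.01 without CIH library 3. Cluster 14, a group of 703 nuclei led by Lmx1a of which 201 passed the gate, held 222 CPM of Col27a1. Its nuclei numbered 61, 74 and 215 in CIH and 62, 94 and 197 in normoxia. Of the gated UMIs of CIH library 3, 40.8% lay outside clusters 1 and 7, against 10.4 to 15.8% in the other libraries. The part of cluster 14 in the gate's Col27a1 values was not tested.

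**Figure D3:**
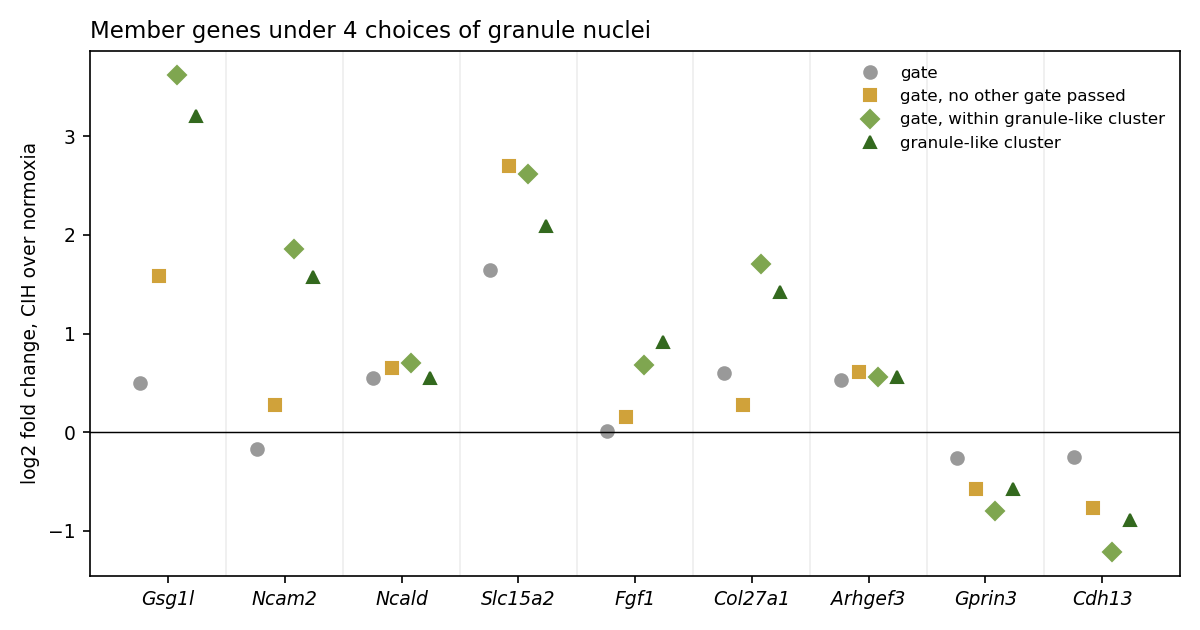
Log2 fold change (CIH over normoxia) of each gene under 4 choices of granule nuclei: the gate, gated nuclei that passed no other gate, gated nuclei inside the granule-like cluster, and the whole cluster. Gsg1l and Ncam2 move most between choices, while Ncald and Arhgef3 stay between 0.53 and 0.70.

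The members moved differently as the nuclei were restricted. Among gated nuclei that passed no other gate, the log2 fold change was 1.59 for Gsg1l, 0.27 for Ncam2, 2.70 for Slc15a2, -0.57 for Gprin3 and -0.76 for Cdh13. Among gated nuclei inside the cluster it was 3.62 for Gsg1l, 1.86 for Ncam2, 2.62 for Slc15a2, -0.80 for Gprin3 and -1.21 for Cdh13. Without both copies of the barcodes found in CIH library 1 and normoxia library 2, the cluster gave 3.35 for Gsg1l, 1.59 for Ncam2, 0.52 for Ncald, 2.15 for Slc15a2, 0.94 for Fgf1, 1.44 for Col27a1, 0.56 for Arhgef3, -0.58 for Gprin3 and -0.90 for Cdh13, close to the values with them. The gate moved more, to 0.65 for Gsg1l, -0.50 for Ncam2, 0.75 for Ncald, 2.09 for Slc15a2, -0.28 for Fgf1, 0.80 for Col27a1, 0.77 for Arhgef3, -0.16 for Gprin3 and -0.66 for Cdh13. With only the shallower copies removed, no member moved by more than 0.03 in the gate. Co-detection was described within each library by the level of each gene in thinned nuclei of the cluster with an Ncam2 UMI, over the level in those without. This ratio was above 1 for Ncald in 6 of 6 libraries (1.09 to 1.46). It was below 1 for Cdh13 in 6 of 6 (0 to 0.954), from 0 to 13 Cdh13 UMIs in the Ncam2-positive nuclei of each library. The ratio was also above 1 in 5 of 6 libraries for the granule marker Gabra6 (0.877 to 1.19) and the oligodendrocyte gene Mag (0.634 to 2.18). For Fat2 it was above 1 in 3 of 6 and for the oligodendrocyte gene Mog in 2 of 6. In gated nuclei thinned in the same way the directions for Ncald and Cdh13 were not the same. There the ratio was below 1 for Ncald in 5 of 6 libraries and above 1 for Cdh13 in 4 of 6. In the cluster the ratio for Gsg1l was 1.46, 1.48 and 0.961 in CIH and 0 in each normoxia library, where the thinned nuclei held few Gsg1l UMIs. For Gprin3 it was 0.503, 0.569 and 0.491 in CIH and 0.955, 1.76 and 2.65 in normoxia, ratios that rest on 4 to 17 UMIs in the Ncam2-positive nuclei of each library.

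Outside granule neurons, 46 of the 63 pairs of a gene and a class could be tested, and edgeR called 0 of them. The smallest adjusted p was 0.399, 13 pairs had an unadjusted p under 0.05, and DESeq2 called 0 too, as did edgeR without the shared barcodes. The 13 pairs were 3 of 9 genes in excitatory neurons, where 1052 of all 14685 genes had such a p. They were 4 of 9 in inhibitory neurons (831 of 12354) and 3 of 9 in oligodendrocytes (1175 of 14296). In astrocytes they were 1 of 5 (218 of 3917) and in endothelial cells 2 of 3 (218 of 3488). Oligodendrocyte precursors (238 of 3328) and microglia (209 of 6956) held 0 of them. The classes were gated by Slc17a6 and Snap25 (excitatory neurons), Gad1 and Gad2 (inhibitory neurons), Mag and Mog (oligodendrocytes), Pdgfra and Lhfpl3 (oligodendrocyte precursors), Aqp4 and Slc1a3 (astrocytes), Csf1r and Inpp5d (microglia) and Flt1 and Adgrl4 (endothelial cells). Of all genes tested, 0.0% were called in excitatory neurons, astrocytes, microglia and endothelial cells, 0.00809% in inhibitory neurons, 0.00699% in oligodendrocytes and 0.0601% in oligodendrocyte precursors. The classes held from 33 to 2489 nuclei per library, and all 9 genes passed the filter on low counts only in excitatory neurons, inhibitory neurons and oligodendrocytes. In oligodendrocyte precursors 5 passed, in astrocytes 5, in microglia 6 and in endothelial cells 3.

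**Figure D4:**
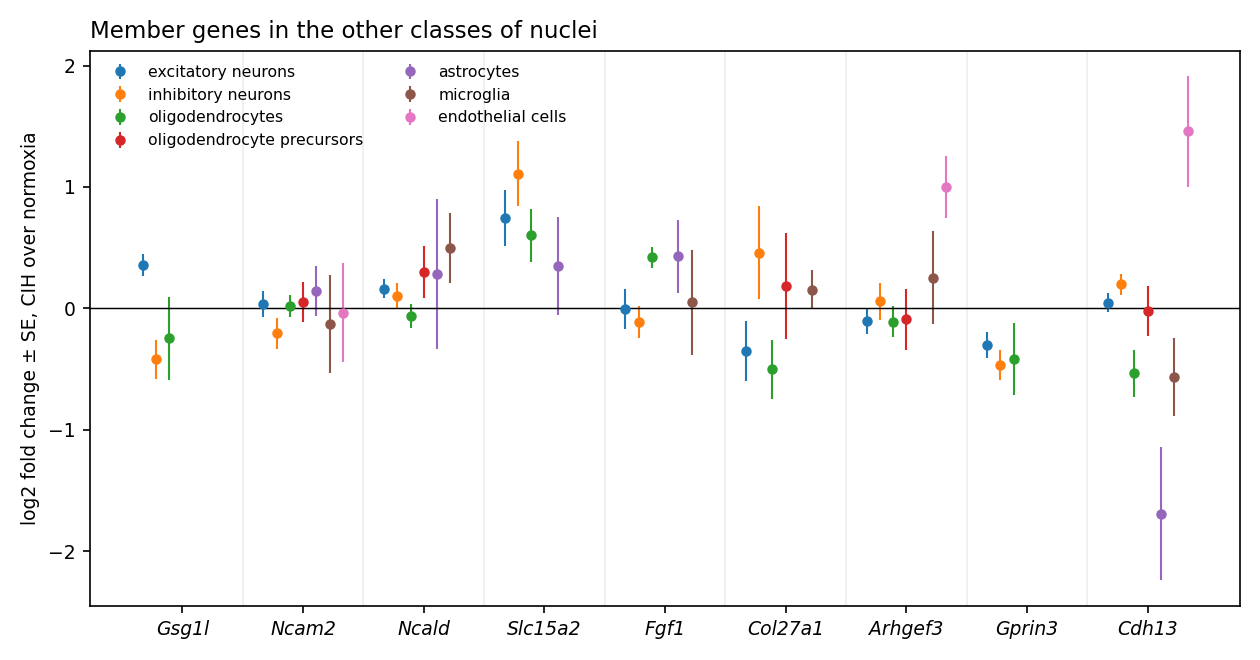
Log2 fold change (CIH over normoxia) with its standard error for each gene in the 7 other classes of nuclei, where the gene passed the filter on low counts; the horizontal line marks no difference. None of the 46 differences was called, and Cdh13 lies on both sides of the line.

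In excitatory neurons 3 genes were higher and 1 lower in CIH without overlap, beside 6.03% and 6.18% of all genes there. Gsg1l was at 72.0, 70.2 and 65.1 CPM in CIH and 50.02, 54.8 and 56.2 in normoxia (log2 ratio of CIH to normoxia 0.36, SE 0.09, adjusted p = 0.561 in edgeR). Slc15a2 was at 9.37, 8.90 and 7.49 against 4.37, 4.70 and 5.97 (0.75, SE 0.23, adjusted p = 0.609 in edgeR), and Ncald at 186, 184 and 169 against 169, 150 and 162 (0.16, SE 0.08, adjusted p = 0.702 in edgeR). Gprin3 was at 63.8, 76.3 and 59.9 against 83.2, 76.5 and 86.3 (-0.30, SE 0.11, adjusted p = 0.645 in edgeR). These 4 genes had the same sign as in the granule-like cluster, and none passed the test. Granule neuron markers (10 of 10 detected) were also higher in the CIH excitatory neurons, at 342 to 418 CPM against 317 to 335, with Gabra6 at 20.0, 15.5 and 9.98 against 6.35, 6.32 and 7.09. Their part in these values was not tested. Ncam2, Fgf1, Arhgef3 and Cdh13 had log2 fold changes between -0.11 and 0.05 in this class and Col27a1 -0.35.

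In inhibitory neurons 2 genes were higher and 1 lower without overlap, beside 5.96% and 5.8% of all genes. Slc15a2 was at 18.1, 12.1 and 15.2 in CIH and 8.29, 6.89 and 5.90 in normoxia (1.11, SE 0.27, adjusted p = 0.450 in edgeR). Cdh13 was at 447, 466 and 431 against 360, 392 and 417 (0.20, SE 0.09, adjusted p = 0.711 in edgeR), and Gprin3 at 64.4, 60.7 and 72.4 against 78.0, 94.2 and 99.4 (-0.46, SE 0.12, adjusted p = 0.533 in edgeR). Slc15a2 and Gprin3 kept the sign seen in the cluster, while Cdh13 had the other sign. Gsg1l was at 40.3, 38.5 and 52.2 against 48.3, 67.0 and 60.2, a log2 ratio of -0.42 (SE 0.16, adjusted p = 0.668 in edgeR) with overlapping groups. Its sign was thus opposite in excitatory and inhibitory neurons, a difference that was not tested.

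In oligodendrocytes 2 genes were higher and 0 lower without overlap, beside 7.22% and 7.16% of all genes. Fgf1 was at 140, 154 and 150 in CIH and 115, 113 and 103 in normoxia (0.42, SE 0.09, adjusted p = 0.399 in edgeR), and Slc15a2 at 18.9, 17.8 and 12.8 against 8.30, 11.2 and 12.4 (0.60, SE 0.22, adjusted p = 0.524 in edgeR). Slc15a2 was thus higher in every CIH library in excitatory neurons, inhibitory neurons and oligodendrocytes, with no call in any. Its groups overlapped in astrocytes, and it did not pass the filter on low counts in oligodendrocyte precursors, microglia or endothelial cells. Cdh13 was at 57.7, 47.7 and 71.6 against 79.3, 71.0 and 108, with overlapping groups (-0.54, SE 0.19, adjusted p = 0.524 in edgeR).

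In endothelial cells 2 of the 3 genes tested were higher in CIH without overlap and 0 lower, beside 6.19% and 6.42% of all genes. Arhgef3 was at 456, 502 and 469 in CIH and 213, 191 and 288 in normoxia (1.00, SE 0.26, adjusted p = 0.643 in edgeR), and Cdh13, which endothelial cells use to bind adiponectin, at 521, 246 and 293 against 58.2, 235 and 93.3 (1.46, SE 0.46, adjusted p = 0.643 in edgeR). The latter gap, between 246 and 235, was narrow. No tested member was without overlap in oligodendrocyte precursors (6.58% higher and 6.4% lower among all genes), astrocytes (5.39% and 4.9%) or microglia (4.36% and 4.11%). In astrocytes Cdh13 was at 37.9, 22.996 and 82.8 against 292, 56.9 and 228 (-1.69, SE 0.55, adjusted p = 0.843 in edgeR). These smaller classes give the widest errors of the comparison.

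**Figure D5:**
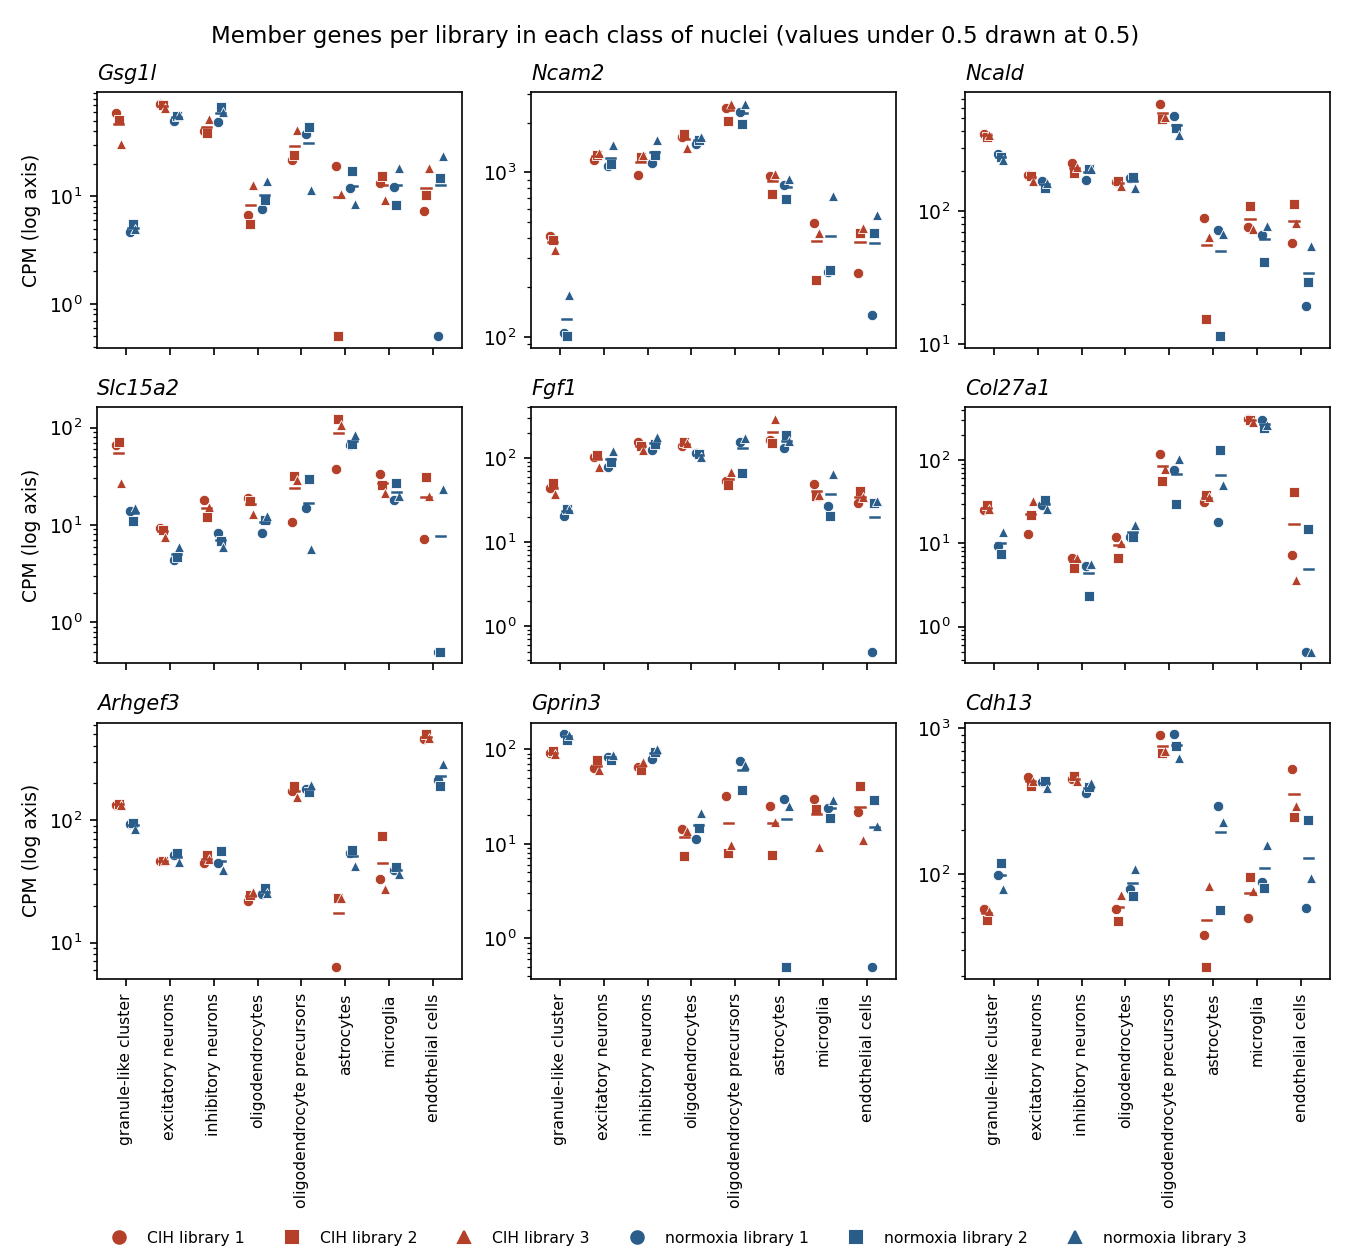
CPM (log axis) of each gene per library in the granule-like cluster and 7 other classes; red points are CIH libraries, blue points normoxia libraries, lines the group means, and values under 0.5 are drawn at 0.5. The gap between groups is widest in the granule-like cluster for Gsg1l and Ncam2, while Col27a1 is highest in microglia and Arhgef3 in endothelial cells.

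Levels over the 6 libraries placed the 9 genes in different cell classes. Gsg1l had its highest mean in excitatory neurons, 61.4 ± 8.98 CPM (SD over 6 libraries), next to inhibitory neurons at 51.1 ± 11.1, and these ranges overlapped. Ncam2, Ncald and Cdh13 were highest in oligodendrocyte precursors, at 2340 ± 279, 496 ± 91.9 and 758 ± 118, without overlap with the next class for Ncam2 and Cdh13 and with overlap with the granule-like cluster (313 ± 65.1) for Ncald. Slc15a2 and Fgf1 were highest in astrocytes, at 80.8 ± 30.4 and 182 ± 57.3, both overlapping the next class. Col27a1 stood apart in microglia at 285 ± 26.0, with no overlap with oligodendrocyte precursors at 76.3 ± 31.8. Arhgef3 was highest in endothelial cells at 353 ± 139, overlapping oligodendrocyte precursors at 177 ± 13.7, while the cluster came next at 112 ± 24.0 with no overlap on either side. These levels compare 1 gene between classes and are not scaled by gene length. Over 48 sums of class and library and 13405 genes, the patterns most like that of Ncam2 were those of Lrp1b (Pearson r = 0.95), Ctnna2 (0.93) and Slc22a23 (0.91), and Myt1l (0.92) and Ryr3 (0.91) were among the 3 most like Gsg1l. The sums of a library share its depth and those of a class its cells, so these correlations are a description.

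The families of the 9 genes were described by lists without the members themselves, and edgeR called 0 genes of any list in the gate or the cluster. The median log2 fold change of all genes was -0.002 in the gate and 0.007 in the cluster. Of the other AMPA receptor subunits and auxiliary subunits 7 of 16 were higher in the gate (median -0.05) and 4 of 10 in the cluster (median -0.06). Gria4, a subunit of the receptor itself, had 0.12 (SE 0.08) in the cluster, Gria2 -0.11 (SE 0.12) and Gria3 -0.15 (SE 0.25). None of these passed the test, and their differences were small beside that of Gsg1l.

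Of the immunoglobulin-family adhesion genes 10 of 18 were higher in both definitions, with medians of 0.02 and 0.04, and Cntn6, a contactin, had 0.31 (SE 0.17) in the cluster. Of the other cadherins 5 of 17 were higher in the gate (median -0.13) and 7 of 12 in the cluster (median 0.03), where Cdh20 had 0.62 (SE 0.23) after -0.39 (SE 0.10) in the gate. The neuronal calcium sensor genes other than Ncald were higher in 4 of 9 in the gate (median -0.01) and in 6 of 6 in the cluster (median 0.26). In the cluster Vsnl1 had 0.24 (SE 0.11), without overlap between groups. Kcnip3 had 0.02 (SE 0.16) there and Kcnip4 0.04 (SE 0.09), both with overlapping groups. In the gate these 2 genes had 0.64 (SE 0.15) and 0.49 (SE 0.14). Gprin and Gi/o alpha genes had medians of 0.03 (5 of 7 higher) and 0.20 (5 of 6 higher). Fibroblast growth factors and receptors had medians of -0.05 (5 of 13 higher) and -0.01 (3 of 6 higher). Slc15a4, the only other peptide transporter that passed the filter on low counts in the cluster, had 0.07 (SE 0.35). The other fibrillar collagens were 0 of 4 higher in the gate and did not pass the filter on low counts in the cluster.

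Mature granule neuron genes separated the 2 definitions. In the gate 12 of 12 were higher in CIH, with a median log2 fold change of 0.71 and Reln at 0.83 (SE 0.17), Kcnd2 at 0.80 (SE 0.18) and Etv1 at 0.70 (SE 0.16). In the cluster 4 of 12 were higher, with a median of -0.07, and Reln had 0.12 (SE 0.08), Kcnd2 0.26 (SE 0.10) and Etv1 -0.09 (SE 0.13). The levels of these 12 genes, which include the gate genes Gabra6 and Fat2, thus moved with the groups in the gate. Their part in the gate's values of the members was not tested. Immature granule neuron genes had medians of 0.09 (7 of 12 higher) and -0.04 (3 of 8 higher). Genes that vary between regions of the granule cell layer, Gprin3 left out, were higher in 3 of 6 in the gate and in 1 of 6 in the cluster, with a median of -0.46 there. Of these, Ebf1 (-0.38, SE 0.11) and Nr2f1 (-0.54, SE 0.19), both transcription factor genes, were lower in every CIH library of the cluster, and the others overlapped. Targets of hypoxia-inducible factors had medians of 0.03 (13 of 23 higher) and 0.06 (10 of 16 higher), and activity-induced genes 0.30 (12 of 15 higher) and -0.11 (3 of 8 higher).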

How the data were processed

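Nuclei of 3 CIH and 3 normoxia libraries were sorted and captured with a 3' droplet kit, per the labels' protocols. The authors deposited raw counts of UMIs per gene and nucleus; the file headers name Cell Ranger 6.1.2, whereas the submitters' processing notes name Cell Ranger 3.1.0, Seurat 4.0 and mm10. Intron counting and strand are not given in the sources used here. UMIs were summed per library and class (gates of at least 1 UMI of 2 genes), scaled by TMM and given as CPM, and tested with edgeR 4.0.16 (R 4.3.3; filterByExpr, quasi-likelihood F test, Benjamini-Hochberg within a class, threshold 0.05) where every library had at least 20 nuclei. SEs of the log2 fold change were taken as its absolute value over the square root of the F statistic. For the members in granule neurons, SEs and ranges without 1 library describe the contrast that chose the genes and are no test. For clusters, the Scrublet nuclei with the highest scores (0.8% per 1000 nuclei) were removed, and 3000 variable genes without the members, 30 principal components, 15 neighbours and leidenalg 0.10.2 at resolution 1 were used (scanpy 1.11.5, Python 3.11.15); the members were left out after a first clustering with them had been seen. The cluster, its settings and the handling of shared barcodes were added after seeing the data. Alternatives were RLE scaling, DESeq2 1.42.0, no filter, a replicate block, stricter nuclei and gates, thinning, doublet removal and leaving out each library. The edgeR fit was tested on counts simulated from the sum of each gated class. Clustering, thinning, co-detection, shared barcodes, DESeq2 and the replicate block were not tested in this way. The members and lists were chosen with earlier results of these data known. Named genes were all 9 members, up to 3 genes per list with the smallest p in the gate (and the regional list in part), called genes, the gate markers and the 3 genes most like Gsg1l and Ncam2; Lmx1a was named after its values were seen. Intervals and shares of nuclei cover counting error only. The results of 1 list of genes and 1 gene that the rule names are not reported here.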

Additional observations from a re-analysis of the deposited data

How the results depend on the processing

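The log2 fold changes of Gsg1l, Ncald, Slc15a2, Col27a1, Arhgef3, Gprin3 and Cdh13 in granule neurons kept their sign in all alternatives run, while Ncam2 changed sign in 17 of 32 and Fgf1 in 6 of 32. The number of members with a log2 fold change above 0 was 6 in the gate and 5 to 7 over the alternatives. All alternatives re-use the libraries on which the members were chosen, so a kept sign describes the processing only. The replicate numbers were used for pairing only in the replicate block. After each gene's group mean had been subtracted from log2 CPM, same-numbered libraries correlated at -0.06 to 0.12 in granule neurons. In the other classes they correlated at 0.02 to 0.41, highest for replicate 3 of oligodendrocytes. Libraries with different numbers gave -0.14 to 0.13 in granule neurons and -0.32 to 0.22 in the other classes. The correlation was above 0.1 in 13 of 24 same-numbered pairs over all classes, and in all 3 such pairs in astrocytes alone. Whether same-numbered libraries shared a batch is not labelled and was not tested.

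Genes called in the gate (1 with edgeR) numbered 236 with DESeq2, 504 with no filter, 6 with the replicate block, 12 when thinned, 0 without doublets, without the shared barcodes in both libraries, with the stricter gate and with the exclusive gate, and 0 to 195 with 1 library left out (195 without CIH library 3). Based on the cluster they numbered 0, with 3 for gated nuclei inside it, 30 with the replicate block, 4 with DESeq2, 0 with RLE scaling, 73 with no filter and 0 to 3 with 1 library left out. They numbered 1 when the cluster was thinned, 1 without the shallower copies of the shared barcodes and 1 without both copies. Excitatory neurons (0) had 16 with DESeq2, 162 with no filter, 3 with the block and 0 to 29 with 1 library left out. Inhibitory neurons (1) had 11, 142 and 10, then 3 with stricter nuclei, 2 without the shared barcodes and 0 to 14 with 1 library left out. Oligodendrocytes (1) had 28, 34 and 266, and 0 to 3 with 1 left out. Oligodendrocyte precursors (2) had 1, 46 and 48, then 0 without the shared barcodes and 0 to 30 with 1 left out. With no filter astrocytes, microglia and endothelial cells (0 each) had 24, 16 and 22; with 1 library left out microglia and endothelial cells each had 0 to 2.

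Members called outside granule neurons (0 of 46) were 2 in inhibitory neurons with no filter (Slc15a2, higher, and Gprin3, lower), 1 in astrocytes (Cdh13, lower) and 1 in endothelial cells (Cdh13, higher), and 2 in oligodendrocytes with the replicate block (Fgf1, higher, and Cdh13, lower). Among all genes with no filter, 100 were called higher and 42 lower of 23593 in inhibitory neurons. The same counts were 9 and 15 of 18832 in astrocytes and 7 and 15 of 18090 in endothelial cells. With the replicate block, 93 were called higher and 173 lower of 14296 in oligodendrocytes. List genes called in granule neurons (0) were 15 with DESeq2, 23 with no filter and 0 to 8 with 1 library left out, and in the cluster 5 with the block, 7 with no filter and 0 to 1 with 1 library left out (Rasgrf1 without normoxia library 3). Members with a median co-detection ratio above 1 in the gate were 5, and 3 when not thinned. The cause of these changes was not tested. Depth limits the low members: Gsg1l rested on 4 to 6 UMIs per normoxia library in the cluster.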
